A study of Mus musculus with 6 samples.

Results

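The matrix metalloproteinase cluster of mouse chromosome 9 holds 10 genes, taken by symbol from the count tables: Mmp13, Mmp12, Mmp1b, Mmp3, Mmp1a, Mmp10, Mmp8, Mmp27, Mmp20 and Mmp7, in this order along the chromosome. All 10 were among the 24063 gene symbols of the tables, each with 1 transcript row. In the RefSeq annotation of GRCm38.p6, which is the mm10 assembly with patches, they span chr9:7272514-7699585, a stretch of 427 kb. RNA was sequenced from 3 penile tumors, each of an SA mouse, and from 3 samples of wild type (WT) penile epithelium, with 1 library per sample. SA mice have the genotype PB-Cre+ Smad4L/L ApcL/L. Their Cre recombinase is driven by the probasin promoter, which is known for its activity in prostate epithelium and responds to androgen, and it deletes floxed Smad4 and Apc. The tumors arose spontaneously with no carcinogen. The WT mice were C57BL/6 of the same age, 5 months, and carry neither floxed allele nor Cre, so that effects of the deletions cannot be told apart from those of Cre, of tumor tissue as such or of any strain difference. The comparison asks how these genes differ between penile squamous carcinoma and normal penile epithelium.

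Matrix metalloproteinases are zinc endopeptidases that cut collagens and other proteins of the extracellular matrix. Most are secreted as inactive proenzymes, which other proteases activate, and tissue inhibitors of metalloproteinases (TIMPs) block them. The cluster arose by gene duplication. It holds the interstitial collagenases (Mmp1a, Mmp8 and Mmp13) and Mmp1b, which is close to Mmp1a in sequence. It also holds the stromelysins (Mmp3 and Mmp10), matrilysin (Mmp7), macrophage elastase (Mmp12), enamelysin (Mmp20) and Mmp27, whose function is little known. In carcinomas these enzymes are known both from the epithelial cells and from fibroblasts, macrophages and neutrophils around them. The AP-1 transcription factors (dimers of Fos and Jun proteins) are known to act on several of these genes through a site just upstream of a TATA box.

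That arrangement can be read in the RefSeq promoter sequences. The 120 bases before the annotated start are shown for the most abundant members Mmp3, Mmp10, Mmp13 and Mmp7, for Mmp20, and for Mmp27, which was the 1 member that did not separate the groups. Capitals mark matches to the AP-1 pattern TGANTCA, in which N is any base, searched on both strands, and to the TATA box TATAAA, searched on the gene's strand.
Mmp3 (chr9:7445702-7445821, plus strand): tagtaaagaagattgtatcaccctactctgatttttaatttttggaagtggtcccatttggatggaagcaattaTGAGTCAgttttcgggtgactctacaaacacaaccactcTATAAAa
Mmp10 (chr9:7502222-7502341, plus strand): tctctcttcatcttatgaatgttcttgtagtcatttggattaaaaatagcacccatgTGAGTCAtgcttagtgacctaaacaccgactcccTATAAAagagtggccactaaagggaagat
Mmp13 (chr9:7272394-7272513, plus strand): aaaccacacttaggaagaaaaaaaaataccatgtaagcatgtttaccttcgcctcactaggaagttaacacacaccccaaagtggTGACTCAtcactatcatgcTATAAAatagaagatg
Mmp7 (chr9:7691970-7692089, plus strand): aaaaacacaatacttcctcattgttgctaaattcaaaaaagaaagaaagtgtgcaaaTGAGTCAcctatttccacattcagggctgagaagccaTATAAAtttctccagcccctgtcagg
Mmp20 (chr9:7628111-7628230, plus strand): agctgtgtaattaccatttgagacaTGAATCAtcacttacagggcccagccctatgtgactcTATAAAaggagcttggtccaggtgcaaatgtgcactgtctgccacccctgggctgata
Mmp27 (chr9:7571276-7571395, plus strand): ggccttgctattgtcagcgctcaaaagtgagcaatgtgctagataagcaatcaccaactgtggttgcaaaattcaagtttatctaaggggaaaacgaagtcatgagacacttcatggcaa

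Within these 120 bases, TGANTCA was found in 8 of the 10 promoters, in all but Mmp8 and Mmp27, and in 3.41% of 32851 mouse promoter entries of RefSeq. The matched letters were TGAGTCA, except for TGACTCA in Mmp13 and TGAATCA in Mmp20. TATAAA was found in 7 of the 10, in the same promoters except that of Mmp12, against 4.19% of all entries. Both were present in 7 of the 10 and in 0.253% of all entries. The AP-1 match lay upstream of the TATA match in each of these 7. In Mmp10 and Mmp7 it covered the same positions, -63 to -57 from the start, in Mmp3 positions -46 to -40, in Mmp13 -35 to -29 and in Mmp20 -95 to -89. The members share ancestry, so their matches are not independent of each other. Mmp12 had TATAAA 5 bases into the annotated transcript, which shows how these positions depend on the annotated start. The annotated start of RefSeq differed from that of GENCODE by 10 bases for Mmp10, 21 for Mmp1b and 27 for Mmp8. Over 250 upstream bases, the ETS family site PEA3 (AGGAAG) was found in 5 of the 10 and in 29.5% of all entries. The RUNX site AACCACA was in Mmp13 and Mmp27 (4.4% of all entries), the TCF site CTTTGTT in Mmp8 (5.03%) and its form CTTTGAT in none (3.21%). TTGGTGA, the core of the element through which TGF-beta is known to repress some of these genes, was in Mmp27 (3.26%). A match is a description of letters, and no binding was measured.

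**Figure D1:**
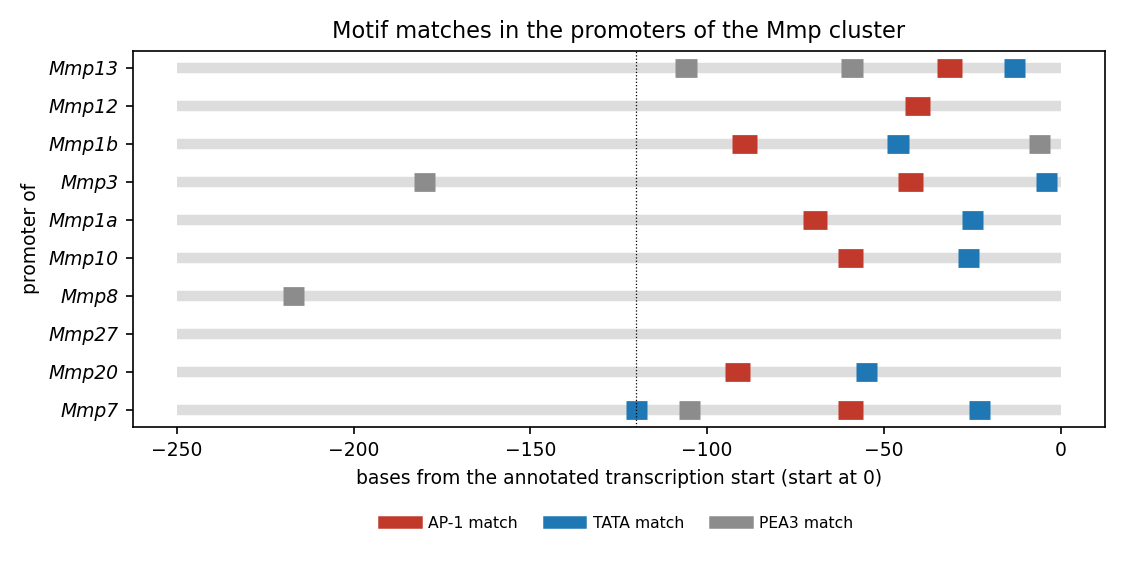
Positions of motif matches in the 250 bases before the annotated start of the 10 genes (rows, in chromosomal order), with the distance from the start in bases on the horizontal axis and a dotted line 120 bases before it. Red, blue and grey blocks are AP-1, TATA and PEA3 matches, and 7 rows show a red block followed by a blue one within the last 120 bases.

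Of the 10 members, 8 were abundant enough to be tested, and all 8 were higher in SA tumors at an adjusted p-value under 0.01 and a change of at least 4-fold, the thresholds used throughout. Of all 16336 genes tested, 9.41% were called higher in this way and 3.59% lower. A gene that has hardly any counts in WT passes the filter on low counts only through its level in the tumors. The share among the tested members therefore cannot be read as support, nor can that of any list below with such genes. Without the filter, 9 of the 10 were called higher, against 8.14% of 21195 genes. The added call, Mmp1b, had no WT count, and its lower bound given below, 3.48-fold, is under 4-fold. In 9 of the 10 every SA library lay above every WT library, as in 29.7% of the genes with any count. The median log2 fold change (SA over WT) of the 10 was 6.61 without the filter, and that of all genes 0.11. It was 5.40 with the 3 members that had no WT count at the lower bounds given below. Levels are CPM values, counts scaled to a common library total and normalized by the trimmed mean of M values (TMM), and the p-values are from edgeR's quasi-likelihood F-test, adjusted over all genes by the Benjamini-Hochberg method. Values of 3 libraries are listed in the order of their replicate numbers.

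The stromelysins made up most of the signal. Mmp3, which cuts proteoglycans, laminin and fibronectin and can activate other proenzymes of the family, was at 150, 234 and 288 CPM in the SA tumors and at 4.07, 3.97 and 2.73 CPM in WT. Mmp3 was thus already present in every WT library and was 62.3-fold higher in the mean of the tumors (log2 fold change 5.95, SE 0.30, adjusted p = 4.88e-06). Mmp10, which has a similar range of substrates and is known in keratinocytes at wound edges, was at 62.1, 86.9 and 70.5 CPM in the tumors. In WT it had 3, 5 and 0 counts, which is 0.136, 0.167 and 0 CPM. The tumor libraries differed by no more than 1.40-fold in Mmp10, the smallest spread of the 10 members, and the mean was 726-fold higher than in WT (log2 fold change 9.37, SE 0.36, adjusted p = 1.62e-06). With 8 counts in all of WT, the size of this fold rests on few reads. Its log2 value was 8.85 without WT penis 3 and 10 without WT penis 2. The transcripts of Mmp3 and Mmp10 align at 77.7% identity, and 3.59% and 3.76% of their 76-base windows, the read length, occur unchanged in the other gene.

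Mmp13, the collagenase of hypertrophic cartilage and bone that also cuts fibrillar collagen in carcinoma stroma, was at 28.4, 60.0 and 52.4 CPM in SA tumors and at 0.271, 0.234 and 0.273 CPM in WT. The WT libraries held 6, 7 and 6 counts, and the tumors 764, 1812 and 6457. The groups were far apart, with a 181-fold difference of the means (log2 fold change 7.5, SE 0.39, adjusted p = 3.63e-06).

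The other collagenases and Mmp1b were far less abundant than Mmp13 in the tumors. Mmp1a, one of the mouse counterparts of human MMP1, was at 0.966, 1.49 and 2.39 CPM in SA tumors, from 26, 45 and 294 counts. No WT library had a count. Set against 3 counts per library, a mean of 0.124 CPM in WT, Mmp1a was at least 13-fold higher (adjusted p = 0.000575). Mmp1b, which lies on the other side of Mmp3 and on the opposite strand, had 13, 5 and 80 counts in the tumors but none in WT, and fell under the filter. Its level of 0.483, 0.166 and 0.650 CPM was at least 3.48-fold above the same floor, with an adjusted p of 0.00292 when no filter was used. This call rests on few reads. When single libraries were left out and the filter was kept, Mmp1b was tested in 4 of 6 fits and called in 1, that without SA tumor 2 (adjusted p = 0.00408), and the adjusted p in the other 3 was between 0.0117 and 0.0154.

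The pair is close in sequence, in its promoters as in its transcripts, and the promoters are shown for that reason with the same capitals.
Mmp1a (chr9:7464021-7464140, plus strand): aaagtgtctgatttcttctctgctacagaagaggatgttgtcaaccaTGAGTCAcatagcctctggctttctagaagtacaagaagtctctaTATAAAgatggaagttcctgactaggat
Mmp1b (chr9:7388027-7388146, minus strand): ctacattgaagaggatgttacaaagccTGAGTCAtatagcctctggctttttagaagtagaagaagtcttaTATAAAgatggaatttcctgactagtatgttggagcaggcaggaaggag
Over aligned bases, the promoters were 89.7% identical and the transcripts 90.9%. Of the 76-base windows of the Mmp1b transcript, 12.5% occur in transcripts of Mmp1a or Mmp12, and 4.37% of those of Mmp1a occur in Mmp1b, so that part of the counts of this pair cannot be assigned with certainty. In every tumor library Mmp1a had more counts than Mmp1b.

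Mmp8, the collagenase that neutrophils store in their granules, had 21, 26 and 242 counts in the SA tumors against 3, 0 and 0 in WT, or 0.780, 0.861 and 1.97 CPM against 0.136, 0 and 0 CPM. Every tumor was above every WT library. The log2 fold change was 4.84 (SE 0.88, adjusted p = 0.002), and the ratio of the pooled counts at equal depth was 39.6 (95% exact binomial interval 13.4 to 193, counting error only). Of the 289 pooled tumor counts, 242 came from SA tumor 3, the deepest library, so that this ratio is weighted to that tumor. Without WT penis 1, the 1 WT library with a count, the fitted log2 fold change was 8.86, and in the other 5 leave-one-out fits 4.12 to 5.07. Tested against a change of 4-fold rather than against 0, Mmp8 was no longer called (adjusted p = 0.0366).

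Of the neutrophil markers listed for this comparison, 7 of 11 were tested and 5 were higher, where 9.41% of all genes tested were. The 11 markers summed to 1837, 1559 and 2689 CPM in the tumors and 493, 324 and 166 CPM in WT. Most of the tumor sums came from S100a8, with 734, 582 and 1034 CPM, and S100a9, with 976, 803 and 1368 CPM, which keratinocytes under stress are also known to express. Csf3r, the receptor for granulocyte colony-stimulating factor, was at 19.1, 28.4 and 63.4 CPM in the tumors and at 1.76, 1.77 and 1.05 CPM in WT (log2 fold change 4.59, SE 0.54, adjusted p = 0.000486). Cxcr2, a chemokine receptor of neutrophils, rose by 2.91 (SE 0.45, adjusted p = 0.000948) on the log2 scale. Retnlg had the largest change of those called, at 1.04, 2.88 and 4.88 CPM in the tumors and at 0.0904, 0.0668 and 0 CPM in WT (log2 fold change 5.73, SE 0.84, adjusted p = 0.000641). The granule genes Ltf and Lcn2, of which Lcn2 is also epithelial, had log2 fold changes of 0.46 and -1.13 that did not pass the test (adjusted p = 0.513 and 0.111). The granule genes Mpo, Elane, Ngp and Camp had too few counts to be tested. The symbol Ly6g was not found in the tables. In bulk tissue, a difference in the number of cells of a type and one in RNA per cell cannot be told apart, and the part of the neutrophil markers in the Mmp8 difference was not tested.

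Matrilysin, Mmp7, is a small enzyme with no hemopexin domain that epithelial cells secrete, and Paneth cells of the intestine use it to activate defensins. It was at 15.6, 16.6 and 10.4 CPM in SA tumors and at 0.452, 0.234 and 0.137 CPM in WT. Each WT library held between 3 and 10 counts, all tumors were higher, and the means differed 51.8-fold (log2 fold change 5.69, SE 0.37, adjusted p = 9.26e-06). Of its 76-base windows, 4.93% occur in the transcript annotated as AV064505, which overlaps the gene, and the strand setting of the counting is not given in the sources used here. Among 6 genes known from Paneth cells, 3 were tested and 2 were higher, where 9.41% of all genes tested were. The 2 higher genes were Itln1, at 3.98, 2.25 and 3.62 CPM with no count in WT, and Defa5, at 0.632, 0.695 and 0.633 CPM with none in WT. Both passed the filter only through the tumors, so that this share cannot be read as support. Without the filter, 2 of 4 were called higher, against 8.14% of all genes. The tumors were at 22.9, 31.7 and 18 CPM of Lyz1, a lysozyme, and WT at 10.6, 4.31 and 4.56 CPM, a difference that did not pass both thresholds (log2 fold change 1.91, adjusted p = 0.0045). Defa24 and Defa17, the remaining defining genes of that list, were under the filter, and Defa17 had no count in any library.

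Macrophage elastase, Mmp12, cuts elastin and is known from alveolar and tumor macrophages. It was at 15.4, 25.5 and 51.3 CPM in SA tumors and at 1.18, 0.868 and 0.592 CPM in WT, with 13 to 26 counts in each WT library. All tumors were higher, by 35.0-fold in the mean (log2 fold change 5.13, SE 0.55, adjusted p = 0.00025). The tumors differed among themselves by 3.33-fold, SA tumor 3 being the highest and the deepest, and without it the log2 fold change was 4.54 (adjusted p = 1.9e-05). No macrophage marker was above WT in every pair of libraries. None of the 10 tested was called in either direction, and their median log2 fold change was -0.03. Of these, 2 were below WT in every pair, Cd163 with a log2 fold change of -1.57 (adjusted p = 0.0025) and Mertk with -1.28 (adjusted p = 0.00849). Fcgr1 went the other way with 1.10 (SE 0.41, adjusted p = 0.0484), and its groups overlapped. The sum of the 10 was 145, 333 and 349 CPM in the tumors and 343, 247 and 277 CPM in WT. The defining markers were Emr1 (the symbol in the tables for Adgre1, which encodes F4/80) with a log2 fold change of 0.00 (SE 0.34), Csf1r with 0.36 (SE 0.40) and Cd68 with -0.25 (SE 0.25). The part of macrophages in the Mmp12 difference was not tested, and in bulk tissue cell number and RNA per cell cannot be told apart.

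Enamelysin, Mmp20, is known as an enzyme of tooth enamel formation, in which it cuts amelogenin. It was at 9.59, 4.60 and 5.27 CPM in the SA tumors, which is 258, 139 and 649 counts, and no WT library had a count. Mmp20 was at least 52.2-fold above the floor of 3 counts per WT library (adjusted p = 0.000102) and was the only one of the 10 members whose highest CPM was in SA tumor 1. Other enamel genes were listed with it: 4 of 6 were tested and 3 were higher, where 9.41% of all genes tested were. Those 3 had hardly any WT counts, so that this share cannot be read as support either. Without the filter, 2 of 6 were called higher, against 8.14% of all genes. Amelx, the amelogenin gene, and Enam were under the filter, with 0, 149 and 17 and with 0, 35 and 6 counts in the tumors, so that neither had a count in SA tumor 1, where Mmp20 was highest. Odam, a protein of the junction between gum and tooth, was at 23.3, 32.0 and 55.4 CPM in the tumors and at 0.181, 0.167 and 0.0911 CPM in WT (log2 fold change 7.94, SE 0.49, adjusted p = 1.09e-05). Amtn, or amelotin, was at 3.86, 15.4 and 10.7 CPM against at most 0.0668 CPM (log2 fold change 7.46, SE 0.73). Ambn, or ameloblastin, was at 3.94, 40.8 and 7.20 CPM and thus uneven between tumors, and its call was kept in 3 of the 6 fits that left out 1 library and lost without the filter (adjusted p = 0.0195). The fourth, Klk4, the protease that follows Mmp20 in enamel maturation, was at 0.372, 0.364 and 0.162 CPM in the tumors and at 1.31, 0.868 and 0.866 CPM in WT, with a log2 fold change of -1.90 that did not reach the 4-fold threshold (adjusted p = 0.00656).

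Mmp27 stood apart from the rest. Its counts were 5, 4 and 27 in the SA tumors against 6, 3 and 7 in WT, or 0.186, 0.132 and 0.219 CPM against 0.271, 0.1 and 0.319 CPM. The groups overlapped, and without the filter its log2 fold change was -0.25 (SE 0.59, adjusted p = 0.749). At this depth a moderate difference would not have been detectable. Mmp27 lies between Mmp8 and Mmp20, both of which were called.

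**Figure D2:**
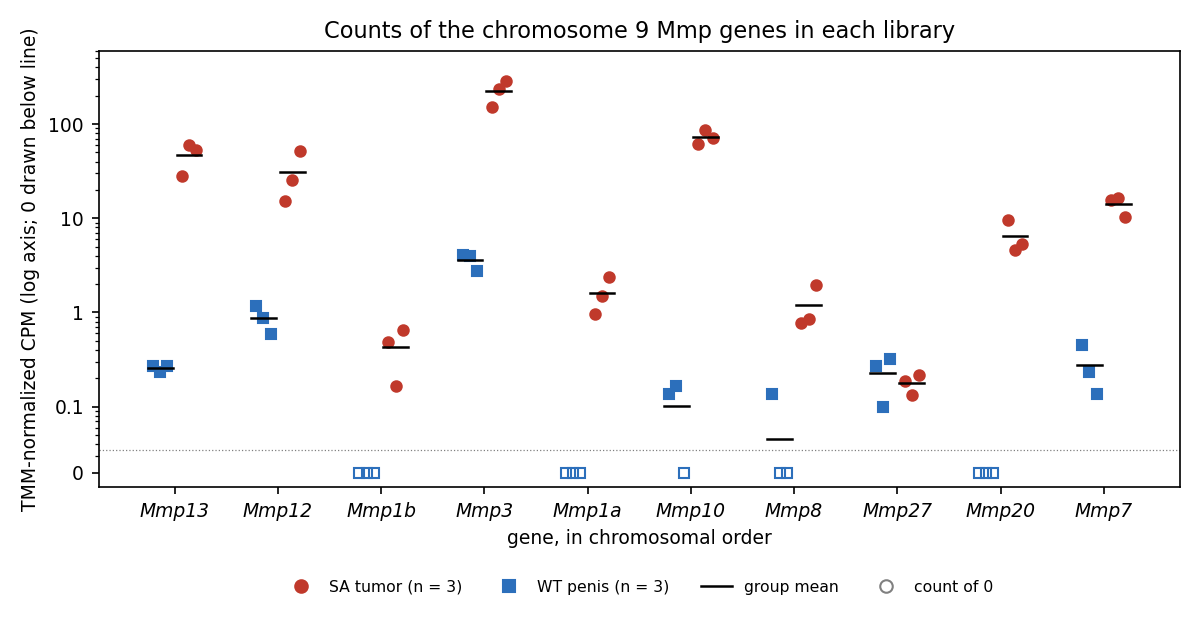
Level of the 10 genes in each library, as TMM-normalized CPM on a log axis, with SA tumors as red circles, WT penises as blue squares, group means as black lines and counts of 0 as open symbols below the dotted line. Red lies above blue in 9 genes, Mmp27 is the exception, and Mmp1b, Mmp1a and Mmp20 have no WT count.

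Summed over the 10 genes, the level was 283, 430 and 483 CPM in SA tumors and 6.51, 5.57 and 4.05 CPM in WT, a 74.1-fold difference of the means (exact two-sided permutation p = 0.10, the smallest that 3 against 3 libraries can give). To compare genes with each other, TPM values, in which the count is divided by transcript length and scaled to the same total in every library, were used. In the tumors Mmp3 led with a mean of 221 TPM (SD 71.5, n = 3), followed by Mmp10 with 74.7 (SD 10.9), Mmp13 with 31.0 (SD 10.5), Mmp7 with 28.6 (SD 6.04), Mmp12 with 15.2 (SD 9.56) and Mmp20 with 3.52 (SD 1.5). Mmp1a, Mmp8, Mmp1b and Mmp27 followed with means of 1.42, 0.877, 0.389 and 0.193 TPM. The ranges over the 3 tumors overlapped between Mmp13 and Mmp7, between Mmp7 and Mmp12 and between each neighbouring pair from Mmp1a to Mmp27, and the other neighbours in this order were apart. In WT, Mmp3 with 2.72 TPM (SD 0.469) was apart from the next, Mmp7 with 0.418 TPM (SD 0.221), and below it every neighbouring pair overlapped.

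The make-up of the pool also differed. Mmp3 gave 53.4%, 56.2% and 63.9% of the summed TPM in the tumors and 64.6%, 74.6% and 71.2% in WT. Mmp10 gave 23%, 21.7% and 16.3% in the tumors and 2.23%, 3.25% and 0% in WT, so that the ratio of Mmp10 to Mmp3 was 0.357 (SD 0.0918) in the tumors and 0.0261 (SD 0.0230) in WT. Mmp13 held a mean share of 8.12% in the tumors and 3.55% in WT, and Mmp12 3.83% and 8.38%. In these 4 genes the shares of the 2 groups did not overlap (exact two-sided permutation p = 0.10 each, 14 quantities compared, none of which can pass 0.05 at this size). The shares of Mmp27, Mmp20, Mmp1a and Mmp1b did not overlap either (exact two-sided permutation p = 0.10 each). Mmp27, which rests on few counts, held a mean of 0.0532% in the tumors and 5.25% in WT, while Mmp20, Mmp1a and Mmp1b had no WT count. The share of Mmp7 overlapped between the groups, with 8.11% and 10.3% (exact permutation p = 0.50), as did that of Mmp8. Shares of one total are not independent of each other.

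**Figure D3:**
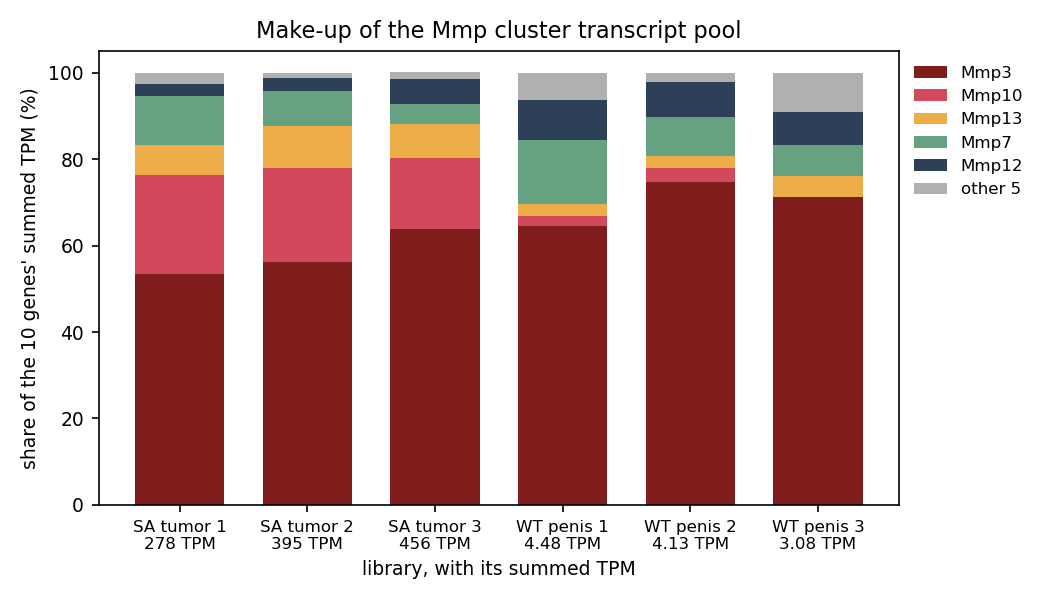
Share of each gene in the summed TPM of the 10 genes, in percent, for each library, with the summed TPM under each bar. Mmp3 is the largest part of all 6 bars, and the Mmp10 part is between 16.3% and 23% in SA tumors and at most 3.25% in WT penises.

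Between the tumors, the members did not move as one. SA tumor 3 was the highest in Mmp3, Mmp12, Mmp8, Mmp1a, Mmp1b and Mmp27, SA tumor 2 in Mmp13, Mmp10 and Mmp7, and SA tumor 1 in Mmp20. SA tumor 1 was the lowest of the 3 in Mmp3, Mmp12, Mmp13, Mmp10, Mmp1a and Mmp8. It was also the lowest in the summed fibroblast markers, at 1524 CPM against 4199 and 5331, and in the macrophage markers given above. The same held for smooth muscle markers (89.1 against 160 and 196 CPM) and endothelial markers (157 against 191 and 265 CPM). It held as well for bone and cartilage markers (77.5 against 143 and 145 CPM) and keratinocyte markers (25015 against 29720 and 25353 CPM). The neutrophil markers were lowest in SA tumor 2 (1559 CPM) and the Paneth cell genes in SA tumor 3 (22.4 CPM). With 3 tumors this is a description only. Profiles of the 8 tested members over all 6 libraries were compared by the root mean square distance of centred log2 CPM, in which the prior count sets the WT values of genes without a WT count. Among the 4 members with counts in every WT library, Mmp7 and Mmp3 were the closest pair (0.555). Of the genes outside the cluster, the 5 nearest to the mean profile of the 8 tested members were Kng2 (0.215), Mmp9 (0.253), Elfn1 (0.303), Vil1 (0.304) and Il24 (0.307). That mean includes Mmp1a and Mmp20, which had no WT count, as Il24 had none.

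On either side of the cluster, the share of genes called was close to that of all genes. Of 14 genes within 1 Mb that are in the tables, 10 were tested and 1 was called, Trpc6, a cation channel gene 844.3 kb away (log2 fold change 2.50, SE 0.33, adjusted p = 0.000368), where 9.41% of all genes tested were called higher. The median log2 fold change of the 10 was 0.30, against 0.03 for all genes tested. The nearest gene on the left, Dcun1d5, lies 51.6 kb from Mmp13 and was at 47.2, 49.2 and 42.5 CPM in the tumors and at 40.8, 33.9 and 37.0 CPM in WT (log2 fold change 0.31, SE 0.11, adjusted p = 0.0428). Behind it Dync2h1, a motor subunit of cilia, had a log2 fold change of 0.67 (SE 0.13), which passed the p-value threshold (adjusted p = 0.00311) but not that of 4-fold. On the right, Tmem123, 64.5 kb from Mmp7, had a log2 fold change of -0.29 (SE 0.11, adjusted p = 0.0628). Of the inhibitors of apoptosis next to it, Birc2 had -0.22 (SE 0.11, adjusted p = 0.122) and Birc3 0.29 (SE 0.14, adjusted p = 0.111). The microRNA gene Mir5618 lies in the same stretch and had too few counts to be tested. Yap1, the Hippo pathway coactivator further to the right, was at a mean of 213 CPM in the tumors and 219 CPM in WT (log2 fold change -0.04, SE 0.11).

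**Figure D4:**
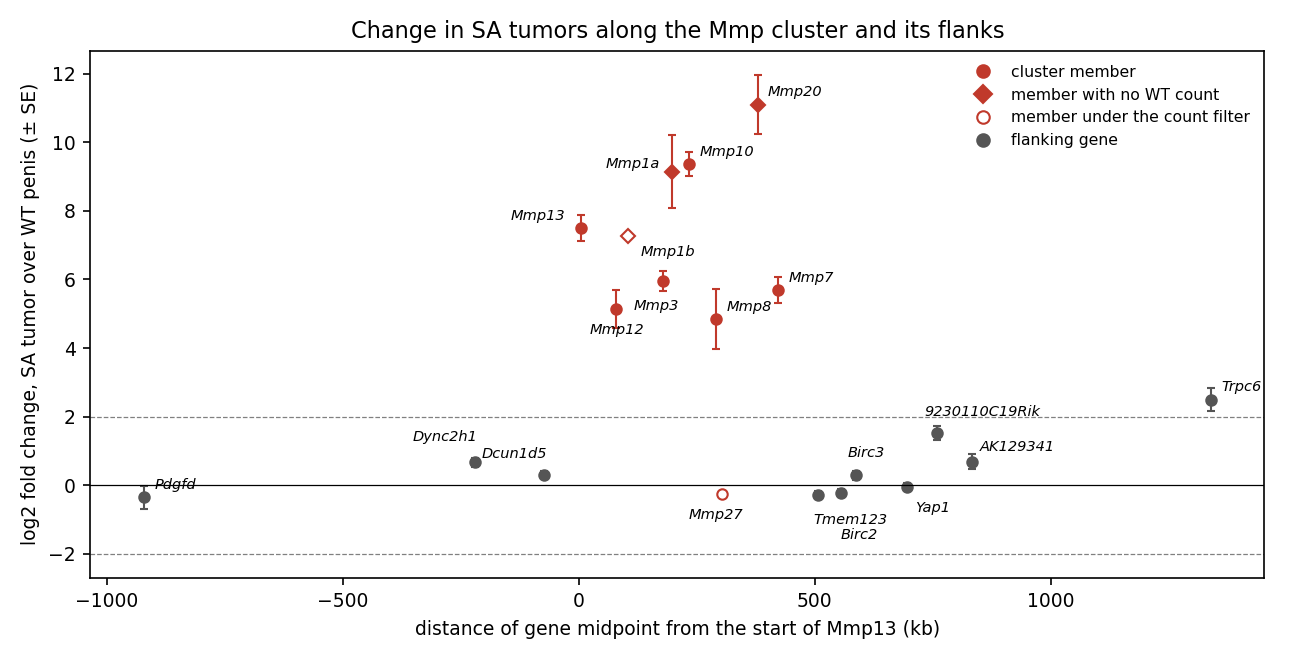
Log2 fold change of SA tumors over WT penises, with its SE, against the distance in kb of each gene's midpoint from the start of Mmp13, for the cluster (red) and the tested genes within 1 Mb (grey). Diamonds have no WT count, so that their height depends on the fit, open symbols were under the filter and come from the fit without it, and dashed lines mark a 4-fold change. Among the red symbols all but Mmp27 lie above 4, and among the grey ones only Trpc6 lies above 2.

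Of 13 metalloproteinase genes outside the cluster, 12 were tested: 2 were higher, 1 was lower and 9 were not called, with a median log2 fold change of 0.46. With 9.41% of all genes higher and 3.59% lower, these small counts are not read as a property of the family. Mmp9, a gelatinase that neutrophils and macrophages also make, was at 101, 171 and 219 CPM in the tumors and at 2.22, 2.00 and 1.91 CPM in WT (log2 fold change 6.33, SE 0.33, adjusted p = 5.87e-06). Mmp25, a membrane-anchored enzyme known from leukocytes, rose by 2.91 (SE 0.47, adjusted p = 0.00105) on the log2 scale, and Mmp17, another membrane-anchored member, fell by 2.42 (SE 0.20, adjusted p = 3.09e-05). Mmp2, the gelatinase of fibroblasts, overlapped between the groups with 194, 363 and 442 CPM against 268, 254 and 283 CPM, and Mmp14, which activates it, had a log2 fold change of 1.00 (SE 0.11, adjusted p = 0.000137) that was under 4-fold. Whether the cluster differs from the other genes of the family was not tested.

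Of 6 inhibitors, 1 was higher, where 9.41% of all genes tested were, and 5 were not called, with a median log2 fold change of -0.92. Timp1 was at 17.1, 29.3 and 43.9 CPM in the tumors and at 4.75, 4.74 and 3.01 CPM in WT (log2 fold change 2.85, SE 0.37, adjusted p = 0.000463). The more abundant Timp2 and Timp3 were below WT in every tumor, with log2 fold changes of -1.21 (SE 0.19, adjusted p = 0.000883) and -1.30 (SE 0.30, adjusted p = 0.00874), which did not reach 4-fold. Reck, a membrane-bound inhibitor, was at 4.50, 9.80 and 14 CPM in the tumors and at 32.0, 37.6 and 45.3 CPM in WT. Its log2 fold change of -2.0 (SE 0.38, adjusted p = 0.00367) lay just short of the 4-fold threshold before rounding. A2m went the other way and was above WT in every pair of libraries, but was not called (log2 fold change 2.74, SE 0.77, adjusted p = 0.017).

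**Figure D5:**
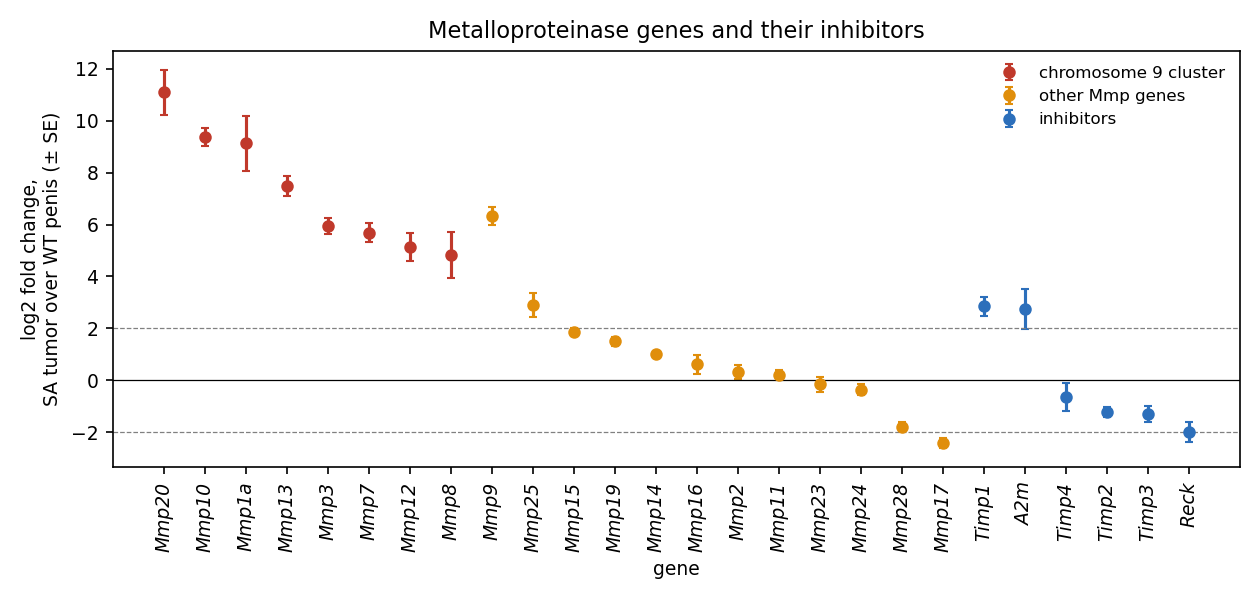
Log2 fold change of SA tumors over WT penises, with its SE, for the 8 tested genes of the cluster (red), the 12 tested metalloproteinase genes elsewhere (orange) and 6 inhibitors (blue), each group sorted by value, with dashed lines at a 4-fold change. All 8 cluster genes lie above 4, and Mmp9 is the only other gene that does.

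Among genes that act before and after these enzymes, 3 of 11 tested activators of the proenzymes were higher, where 9.41% of all genes tested were. Plaur, the urokinase receptor, rose by 2.59 (SE 0.22, adjusted p = 3.34e-05) and the serine proteases Prss22 and Hpn by 3.12 and 2.84 on the log2 scale, whereas Furin, which cuts many proproteins, had a log2 fold change of 1.14 (SE 0.09) that was under 4-fold. Of 21 tested substrates, 4 were higher and 1 was lower, against 9.41% and 3.59% of all genes tested. Spp1, or osteopontin, was at 230, 468 and 377 CPM in the tumors and at 4.75, 3.74 and 4.33 CPM in WT (log2 fold change 6.39, SE 0.31), and Tnc, or tenascin C, rose by 2.92 (SE 0.23). Col17a1, the hemidesmosomal collagen, fell by 2.74 (SE 0.22, adjusted p = 2.26e-05). The fibrillar collagen gene Col1a2 was not called, with 261, 804 and 959 CPM against 1016, 1066 and 1179 CPM (log2 fold change -0.69, adjusted p = 0.226).

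Of 23 factors of the AP-1, ETS, RUNX and TCF families, 9 were higher and none was lower, against 9.41% and 3.59% of all genes tested. Lef1, a partner of beta-catenin, was at 78.7, 57.6 and 51.1 CPM in the tumors and at 0.859, 0.467 and 0.547 CPM in WT (log2 fold change 6.66, SE 0.27, adjusted p = 1.82e-06). Runx2, which is known to act on Mmp13 in bone, was at 62.0, 59.5 and 73.8 CPM against 2.53, 2.60 and 2.00 CPM (log2 fold change 4.77, SE 0.16, adjusted p = 8.64e-07). Runx3 and the ETS factor Elf3 rose by 3.66 and 3.65 on the log2 scale. By family, 1 of 9 AP-1 genes was called (Batf), 3 of 7 ETS genes, 3 of 3 RUNX genes and 2 of 4 TCF genes, a split made after the values were seen. Fos, Fosb and Atf3 were very uneven among the WT libraries. Fos was at 3.71, 519 and 35.5 CPM in WT and at 23.7, 24.0 and 29.6 CPM in the tumors, Fosb at 2.76, 374 and 212 CPM in WT and Atf3 at 3.30, 76.4 and 80.2 CPM, and their log2 fold changes of -2.85, -4.41 and -1.82 were not called (adjusted p = 0.158, 0.0427 and 0.156). Jund and Fosl2 were not called either, Jund with a log2 fold change of -0.92 (SE 0.18, adjusted p = 0.0028) and Fosl2 with -0.86 (SE 0.16, adjusted p = 0.00188). Fosl1 went the other way and was above WT in every pair of libraries, at 16.5, 14.7 and 12.3 CPM against 1.76, 4.84 and 11.8 CPM. Its log2 fold change of 1.24 (SE 0.59, adjusted p = 0.119) was not called, nor were those of Jun and Junb, -0.76 and -0.21. Of 13 tested cytokines known to act on metalloproteinase genes, 6 were higher, where 9.41% of all genes tested were. Il1b was at 40.8, 51.4 and 109 CPM in the tumors and at 0.588, 0.968 and 0.273 CPM in WT (log2 fold change 6.72, SE 0.58, adjusted p = 0.00013), and Osm, Il6 and Tnf rose by 4.55, 3.49 and 3.37 on that scale. Tgfb1 had a log2 fold change of 0.46 (SE 0.15, adjusted p = 0.0295).

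Marker genes of other cell types also differed between the groups. Their counts stand beside 9.41% of all genes tested called higher and 3.59% called lower. Keratinocyte markers summed to 25015 to 29720 CPM in the tumors and 67818 to 74269 CPM in WT, with 0 of 9 called (Krt5 -1.21, Krt14 -0.49, Trp63 -0.82 on the log2 scale). Of 7 smooth muscle markers 6 were lower, with sums of 89.1 to 196 CPM and 1622 to 2132 CPM, and Myh11, Acta2 and Des had log2 fold changes of -5.0, -3.92 and -4.82. Of 9 fibroblast markers none was called, and their sums were 1524 to 5331 CPM in the tumors and 6241 to 6539 CPM in WT. Their median log2 fold change was -0.44, with 2 above and 4 below WT in every pair of libraries, and the defining markers Pdgfra, Pdgfrb and Col1a1 had 1.09, 0.98 and -0.25. None of 6 endothelial markers was called (157 to 265 CPM and 292 to 340 CPM), and Pecam1, Cdh5 and Kdr had log2 fold changes of -0.92, -0.03 and 0.09. Of 10 bone and cartilage markers 7 were tested and 3 were higher, Ibsp, Col2a1 and Sp7, with log2 fold changes of 7.93, 6.43 and 3.39. The osteoclast genes Acp5 and Ctsk had -0.88 (adjusted p = 0.0077) and 0.10, Acan, or aggrecan, had -0.30, and Bglap was under the filter. The sums of the bone and cartilage list overlapped, with 77.5, 143 and 145 CPM in the tumors and 140, 110 and 111 CPM in WT. The part of tissue make-up in the differences of the cluster was not tested. The targeted genes are counted over whole transcripts, so that they do not check the deletion: Smad4 was at 36.6, 36.1 and 46.1 CPM in the tumors and at 61.2, 69.7 and 72.5 CPM in WT, and Apc at 253, 194 and 197 CPM and at 62.5, 85.3 and 91.1 CPM. The gene rows of a library held 23828283 to 110509147 counts, and SA tumor 3 had 4.42 times the median total of the other 5. Leaving it out kept all 8 calls of the cluster.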

How the data were processed

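RNA sequencing of 3 SA tumors and 3 WT penile epithelia was analysed. Libraries were stranded, paired-end and of 76 nt reads. Per the labels and the study's methods, TopHat alignments to mm10 were counted by the authors with HTSeq; versions and the strand setting are not given in the sources used here. The deposited counts are raw, 1 value per RefSeq transcript row (33068 rows, 24063 symbols). FPKM values were deposited by the authors beside them and were not used. TPM values, also deposited by the authors, were used to compare genes with each other. Reads shared by transcripts were counted once per row, and sums over all rows were 1.45 to 1.48 times those over the rows used.

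For each symbol the row with the highest mean count was taken. These rows totalled 24466536, 27547073 and 110509147 for SA tumors 1 to 3 and 25016259, 32871142 and 23828283 for WT, so that 3 counts, taken as the floor, equal 0.0244 to 0.137 CPM (counting error only). Counts were fitted in R 4.3.3 with edgeR 4.0.16: filterByExpr (minimum count 10, or 0.380 CPM, and minimum total 15), TMM, robust quasi-likelihood F-test and Benjamini-Hochberg adjustment over 16336 genes. Calls needed an adjusted p under 0.01 and a log2 fold change of 2 or more in size, the study's thresholds. The SE of a log2 fold change is its size divided by the root of F. The fit was tested on simulated data. Alternatives were DESeq2 1.42.0, limma 3.58.1 (voom), other scalings, no filter, glmTreat, summed transcript rows, a replicate block and leaving out each library. Labels name separate samples of each group, and SA libraries are from 3 mice; the WT labels do not state the number of mice, so that p-values measure the spread between samples. Positions came from the RefSeq table of GRCm38.p6 and not, as had been planned, from the count tables, which hold none (23765 symbols by accession, 197 by symbol, 101 unmatched). Promoters are from the RefSeq table of the same assembly, transcripts for window and identity counts from GENCODE.

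Genes were named from all 10 members, flanking genes within 200 kb, Smad4, Apc, up to 4 called and 3 abundant uncalled genes of each list, each list's first 3 cell markers and the 5 genes nearest in profile. Some genes that the rule covers are left unprinted. Trpc6, Yap1, Batf, Fos, Fosb, Fosl1, Jun, Junb, Atf3, Cd163, Mertk, Fcgr1, Amelx and Enam fall outside it and were named after their values were seen. The same holds for A2m, Mpo, Elane, Ngp and Camp. Members and lists were chosen with earlier results of these data known.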

Additional observations from a re-analysis of the deposited data

How the results depend on the processing

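The 8 tested members were called higher under every alternative except glmTreat, which tests against a change of 4-fold and left 7, without Mmp8; with no filter and with DESeq2, 9 of 10 were called. Under glmTreat 749 genes were higher and 180 lower in place of 1537 and 587, 0 flanking genes were called, 1 gene was higher and 0 lower among the metalloproteinases outside the cluster and their inhibitors, and 20 genes were higher over the marker and regulator lists in place of 34; glmTreat demands a larger change by construction. The lower count of metalloproteinases and inhibitors, 1, became 2 with DESeq2, with RLE scaling and with no filter, and ranged from 1 to 2 when single libraries were left out (2 without SA tumor 3); Reck lay at the threshold. Scaling by library totals alone moved the median log2 fold change of all genes from 0.03 to 0.31 and the share of higher among called genes from 72.4% to 80.0%, and all 8 members stayed called. Replicates carry the same numbers in both groups, but nothing pairs them: residuals of same-numbered libraries correlated at -0.13, -0.10 and 0.02. With the replicate block, 1478 genes were higher and 588 lower, 8 members were called, and 2 metalloproteinases or inhibitors were lower. The log2 ratio of the summed level was 6.21 and ranged from 6.02 to 6.40 when single libraries were left out. Depth limits Mmp27, Mmp1b and Mmp8, and the WT level of Mmp10, which rest on few counts.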
